A study of Mus musculus with 4 samples.

Results

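The Toll-like receptor genes Tlr1 to Tlr9 and the adaptor gene Myd88 were followed across 4 L1210 lines, on every array probe that the deposited table assigns to one of these symbols. They are 10 of the 24561 gene symbols in that table and were read by 14 of its 55681 probes. All 10 genes were well above background on at least 1 array, 8 of them on all 4 arrays, beside 66.1% of all genes on all 4 arrays and 22.5% on none, which is near enough for 10 genes to be no result about them. Among the 8 to 11 of their probes well above background in a line carrying an Fbxw11 variant or in L1210-control, none was called different by 2-fold or more, where 4.47% to 6.97% of all probes so compared were. The largest measured difference was a higher Tlr1 signal in L1210-Fbxw11d, by 1.81-fold. This difference was past 2-fold with centring on the median and without scaling between arrays. With normexp background correction it was smaller, at a log2 ratio of 0.45 against 0.85. Tlr2 gave a lower signal in all 3 variant lines, by 1.31-fold to 1.46-fold, although in L1210-Fbxw11d it turned to a higher one without scaling between arrays.

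Toll-like receptors are transmembrane proteins that recognise molecules of microbes, and in some cases of damaged cells, through leucine-rich repeats. Tlr1, Tlr2, Tlr4, Tlr5 and Tlr6 act mainly at the cell surface, whereas Tlr3, Tlr7, Tlr8 and Tlr9 sense nucleic acids inside endosomes. After binding, their intracellular TIR domain recruits adaptors, of which Myd88 serves nearly all of these receptors except Tlr3, and the signal runs through IRAK kinases and Traf6 to NF-κB and to cytokine and chemokine genes. B cells, macrophages and dendritic cells are known to express several of them.

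L1210 cells are a line of mouse lymphocytic leukemia, labelled here with the background DBA subline 212. The study asked how Fbxw11, an F-box protein that selects substrates for an SCF ubiquitin ligase, alters gene expression when overexpressed. L1210-Fbxw11a, L1210-Fbxw11c and L1210-Fbxw11d carry 1 splice variant each through a lentivirus and are called the Fbxw11a, Fbxw11c and Fbxw11d lines below, and L1210-control is their control line. All 4 lines were infected with lentivirus, sorted for GFP as stable populations and grown in the same medium, with no stimulus named in the labels, and total RNA of each line was hybridised to 1 Agilent 1-colour array. With 1 array per line there is no replicate and no test across samples, and each error given here is technical. In such bulk RNA, fewer cells that express a gene and less RNA per cell cannot be told apart.

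The probes well above background made up 62.5% to 68.7% of all probes on the 4 arrays, and no gene spot was saturated. The Fbxw11d line was hybridised alone on a second slide, so line and slide cannot be told apart for it, and its unscaled signals were higher than those of the control line by a median of 0.62 on the log2 scale, which the scaling to the 75th percentile of each array removed. The 9 spike-in control probes did not share this shift, with an unscaled mean log2 difference to the control line of 0.027 ± 0.086 (SD over probes) in the Fbxw11d line, 0.086 ± 0.19 in the Fbxw11a line and 0.21 ± 0.195 in the Fbxw11c line, and the source of the shift was not tested. The first Fbxw11 probe had log2 ratios to the control line of 0.31 ± 0.085, 0.27 ± 0.081 and 0.025 ± 0.11 in the Fbxw11a, Fbxw11c and Fbxw11d lines (± spread between spots) and the second 0.21 ± 0.088, 0.22 ± 0.084 and 0.18 ± 0.11, so that neither differed by 2-fold. The study checked the overexpression by real-time RT-PCR and western blotting, which were not analysed here, and whether these probes read the introduced sequence was not determined. Of the marker genes listed for blood cell types, 6 of 10 B lineage genes were well above background on every array, with Cd79b, Ms4a1, Ebf1 and Igll1 below it, as were 6 or 7 of 10 T lineage genes, 8 of 10 macrophage and monocyte genes, 5 to 7 of 8 neutrophil genes and 5 or 6 of 8 dendritic cell genes. Of all genes, 66.1% were well above background on all 4 arrays, so that these counts set no lineage apart.

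Signals are scaled to the L1210-control array and given in arbitrary units, and a log2 ratio of 1 or -1 is a 2-fold difference. Without this scaling, each measured log2 ratio to the control line was higher by 0.016 in the Fbxw11a line, 0.12 in the Fbxw11c line and 0.62 in the Fbxw11d line. The level of one probe cannot be set against that of another probe, since each binds with its own strength, so levels are compared between lines only. Of the 14 probes, 11 had 1 spot, those of Tlr2 and Myd88 had 10 spots, and 1 probe of Tlr4 had 2 spots. For a probe with 1 spot, the error of a level is the scanner software's own estimate. For every probe, the error of a log2 ratio is the spread between spots on both arrays combined, as found for the 40 probes with 10 spots that lay nearest in brightness. Where 3 log2 ratios to the control line are given together, they are for the Fbxw11a, Fbxw11c and Fbxw11d lines in that order.

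The probes of Tlr1 and Tlr2 are shown because Tlr1 gave the largest measured difference and because these receptors pair with each other and are similar in sequence. Capitals mark the bases that are identical in the best alignment of both probes without gaps, which covers 47 bases and holds 29 identical ones. Both probes are on the minus strand of mm9, the first at chr5:65316115-65316174 and the second at chr3:83640344-83640403, and they start at bases 2465 and 2645 of their transcripts. The third line is a stretch upstream of a Tlr2 start site in the RefSeq promoter table, in which capitals mark the overlapping matches of the NF-κB consensus on both strands.
Tlr1 probe: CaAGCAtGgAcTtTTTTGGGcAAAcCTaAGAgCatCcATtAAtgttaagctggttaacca
Tlr2 probe: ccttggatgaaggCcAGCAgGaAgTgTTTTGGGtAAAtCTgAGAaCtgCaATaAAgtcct
Tlr2 promoter: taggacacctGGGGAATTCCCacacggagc
The longest run of bases shared by the Tlr1 and Tlr2 probes was 7, and no pair of probes of different genes among the 14 shared a run longer than 8. The Tlr2 promoter stretch is at chr3:83841762-83841791 on the minus strand of GRCm38.p6, and 162 bases lie between the capitals and the start site. It lies inside the RefSeq span of the gene, which is chr3:83836272-83841824 on that build.

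Among cell-surface receptors, Tlr2, which senses lipoproteins together with Tlr1 or Tlr6, gave a signal of 695 ± 18.8 (SD, n = 10 spots) in the control line. It gave 531 ± 36.6 (SD, n = 10 spots) in the Fbxw11a line, 475 ± 28.7 (SD, n = 10 spots) in the Fbxw11c line and 509 ± 33.2 (SD, n = 10 spots) in the Fbxw11d line. The lowest control spot was at 671, while the highest spot of the variant lines was at 596, so that the control line lay above all 3 lines without overlap. The log2 ratios to the control line were -0.39 ± 0.097, -0.55 ± 0.089 and -0.45 ± 0.12 in the same order, and the last of them was 0.17 when signals were not scaled between arrays. Among the 268 probes with 10 spots that were well above background on all 4 arrays, spots did not overlap with those of the control line in 20.5% for the Fbxw11a line, 28.4% for the Fbxw11c line and 29.9% for the Fbxw11d line. All spots of all 3 variant lines lay below every control spot in 2.99% of these probes, a group of 8 that includes Tlr2. Of the 33071 probes of any spot number that were well above background on all arrays, 2.69% lay as far below the control line in all 3 lines as Tlr2 did in its least changed line. These 3 ratios share the single control array. Of the 10 macrophage and monocyte markers, Lyz2 and Fcgr1 were on no array well above background. After scaling, 5 of the other 8 read lower than the control line in all 3 variant lines, and 0 read higher in all 3. In the B lineage list, 1 of 6 markers well above background on all arrays read lower in all 3 lines and 3 higher. In the T lineage list these were 1 and 2 of 6, in the neutrophil list 2 and 1 of 5 and in the dendritic cell list 2 and 0 of 5. No such share was computed for all genes, and no difference between these lists was tested. The scaled signal of the 8 macrophage and monocyte markers summed to 14780 in the control line and 11260 to 12520 in the variant lines. It is a sum over unlike probes to which Cd68 added most, at 7275 in the control line and 4565 to 5632 in the variant lines. Emr1 went the other way in the Fbxw11a and Fbxw11d lines, at 90.9 in both against 48.3 in the control line, and so did Marco, at 165 and 184 against 139. Without scaling, the sum and Cd68 would also read above the control line in the Fbxw11d line, whose log2 signals the scaling lowered by 0.62. The part of such markers in the Tlr2 values was not tested.

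**Figure D1:**
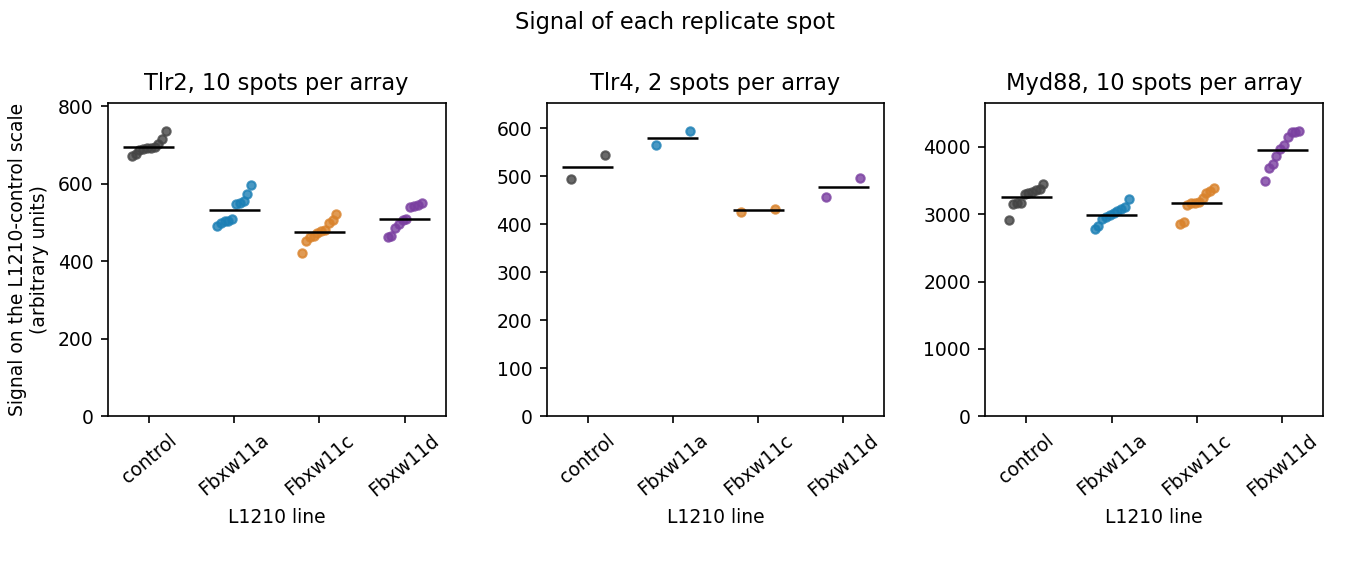
Signal of each replicate spot (points, in arbitrary units on the L1210-control scale, axis from 0) for the Tlr2, Tlr4 and Myd88 probes with several spots, with the mean over spots on the log2 scale as a black line, in the 4 L1210 lines. The 10 Tlr2 spots of the control line, from 671 to 735, lie above all spots of the variant lines, and the 10 Myd88 spots of the Fbxw11d line, from 3499 to 4235, lie above those of the control line.

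Tlr1, a partner of Tlr2 for triacylated lipoproteins, gave a signal of 91.1 ± 9.83 (scanner error) in the control line, 118 ± 12.1 in the Fbxw11a line, 112 ± 11.6 in the Fbxw11c line and 165 ± 16.6 in the Fbxw11d line. The control line was lowest and the Fbxw11d line highest, and the Fbxw11a line and the Fbxw11c line, next to each other in this order, differed by less than their errors. The log2 ratios were 0.37 ± 0.27, 0.29 ± 0.26 and 0.85 ± 0.27, and under the other normalizations and background correction the last one ranged from 0.45 with normexp background correction to 1.07 with centring on the median, which is past 2-fold, as is the 1.47 found without scaling. Of the probes well above background on all arrays, 1.43% were at least as far above the control line in the Fbxw11d line, and 3.17% lay as far above it in all 3 lines as Tlr1 did in its least changed line.

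Tlr6, the partner of Tlr2 for diacylated lipoproteins, gave a signal of 183 ± 18.7 in the control line, 242 ± 24.4 in the Fbxw11a line, 193 ± 19.6 in the Fbxw11c line and 186 ± 18.7 in the Fbxw11d line. The Fbxw11a line read highest, with a log2 ratio of 0.40 ± 0.15, but without scaling between arrays the Fbxw11d line did, at 0.64 against 0.42. The ratios of 0.082 ± 0.14 and 0.023 ± 0.17 in the other two lines were within their errors, and the last was -0.066 with normexp background correction. Tlr1 and Tlr6 are neighbours on chromosome 5 of GRCm38.p6, with 19491 bases between their RefSeq spans.

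Tlr4, the receptor for bacterial lipopolysaccharide, was read by a probe with 2 spots that starts at base 3485 of the transcript (mm9, chr4:66503470-66503529). Its signal was 519 ± 36.2 (SD, n = 2 spots) in the control line, 579.5 ± 19.9 (SD, n = 2 spots) in the Fbxw11a line, 429 ± 4.92 (SD, n = 2 spots) in the Fbxw11c line and 476 ± 27.8 (SD, n = 2 spots) in the Fbxw11d line. The Fbxw11a line was the highest line, except without scaling, when the Fbxw11d line was, and the Fbxw11c line was the lowest. The spots of the control line overlapped with those of the Fbxw11d line. The log2 ratios were 0.16 ± 0.098, -0.27 ± 0.090 and -0.12 ± 0.12, the last of which was 0.095 with centring on the median and 0.50 without scaling. A second Tlr4 probe, at chr4:66590077-66590136 of mm9, was on none of the 4 arrays well above background, at signals of 2.90 to 3.69. It lies 86607 bases from the first one, whereas the RefSeq span of Tlr4 on GRCm38.p6 is 19031 bases long. The scanner output names it by a transcript and not as Tlr4, and whether it reads Tlr4 was not determined.

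Tlr5, the flagellin receptor, was well above background in only the Fbxw11a line, at a signal of 25.2 ± 4.03, and in the Fbxw11d line, at 18.2 ± 2.76. Its signals of 11.2 in the control line and 14.9 in the Fbxw11c line were below that limit. Against such an array, a difference is given as a bound against the lowest signal there of a probe whose spots all passed that limit, which was 18.1 in the control line, or the probe's own signal where that is higher. On this basis the log2 ratio of Tlr5 to the control line was at least 0.48 in the Fbxw11a line and at least 0.0060 in the Fbxw11d line. At this brightness, log2 ratios had a spread between spots of 0.76 and 0.98, so no order of the 4 lines could be read. The plain ratio of the Fbxw11a signal to the control signal was 2.26-fold, and since the control signal was not well above background, the bound does not show that the difference was under 2-fold.

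**Figure D2:**
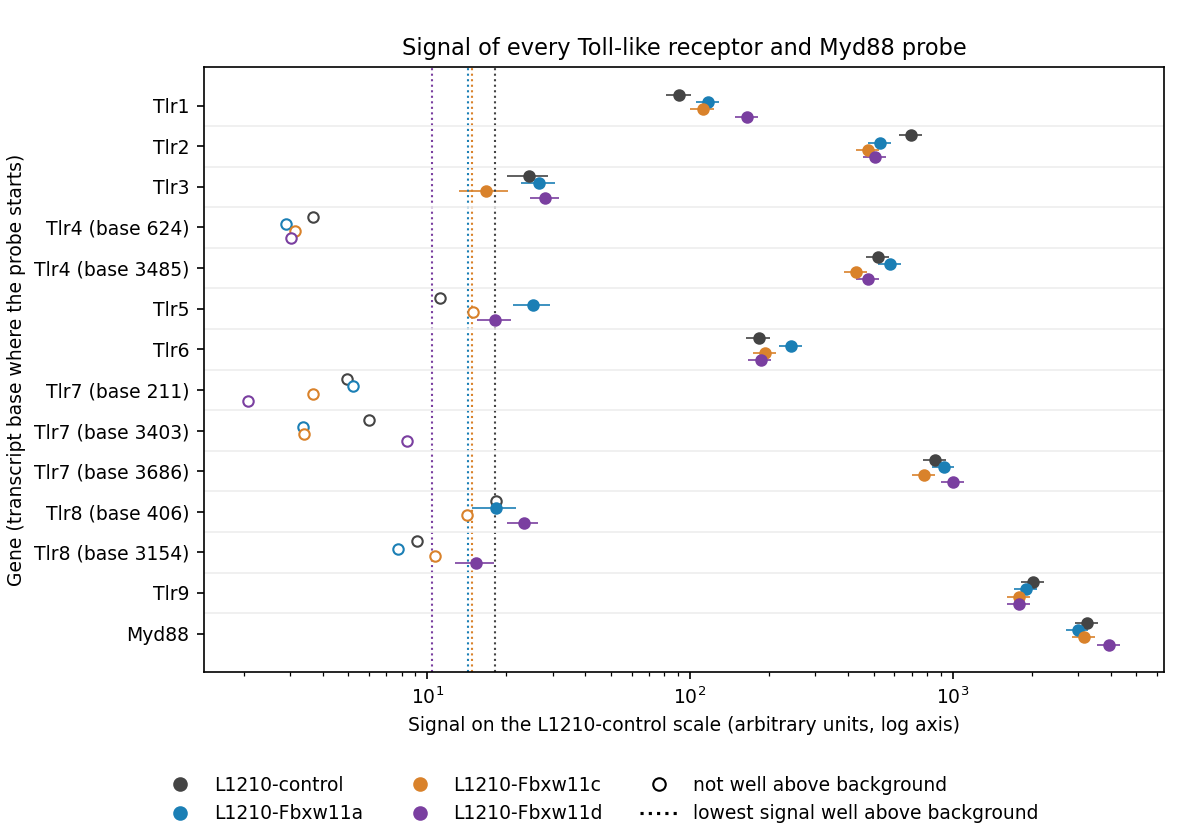
Signal of each of the 14 probes (log axis, arbitrary units on the L1210-control scale) in the 4 L1210 lines, with the scanner error as bars, open circles where a probe was not well above background and dotted lines at each array's lowest signal of a probe whose spots all passed that limit. The probes of Tlr1, Tlr2, Tlr3, Tlr6, Tlr9 and Myd88 and 1 probe each of Tlr4 and Tlr7 are filled in all 4 lines, and levels of different probes are not comparable.

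Among endosomal receptors, Tlr9, which senses unmethylated CpG DNA, gave a signal of 2023 ± 202 (scanner error) in the control line, 1908 ± 191 in the Fbxw11a line, 1794 ± 180 in the Fbxw11c line and 1793 ± 179 in the Fbxw11d line. The 4 lines lay close together, and no neighbours in this order differed by more than the scanner error. The log2 ratios were -0.085 ± 0.090, -0.17 ± 0.090 and -0.17 ± 0.12, and the last of them was 0.043 with centring on the median and 0.45 without scaling. The probe starts at base 3242 of the transcript (mm9, chr9:106128979-106129038).

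Tlr7, which senses single-stranded RNA, was read by 3 probes that did not agree in detection. The probe that starts at base 3686 of the transcript (mm9, chrX:163742863-163742922) gave a signal of 857 ± 85.8 in the control line, 924 ± 92.4 in the Fbxw11a line, 779.5 ± 78.0 in the Fbxw11c line and 1007 ± 101 in the Fbxw11d line. The Fbxw11d line was highest and the Fbxw11c line lowest, with log2 ratios to the control line of 0.11 ± 0.094, -0.14 ± 0.086 and 0.23 ± 0.11, the last of which was 0.45 with centring on the median and 0.85 without scaling. The probes that start at bases 211 and 3403 were on none of the 4 arrays well above background, at signals of 2.07 to 8.41, although the latter lies only 283 bases before the bright probe on the same transcript.

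Tlr8, which lies beside Tlr7 on chromosome X with 39050 bases between their RefSeq spans on GRCm38.p6, was near the lowest signals well above background. The probe at transcript base 406 was well above background in the Fbxw11a line, at 18.3 ± 3.50, and in the Fbxw11d line, at 23.3 ± 3.13, and not in the control line, at 18.3, or in the Fbxw11c line, at 14.2. The log2 ratio to the control line was at least 0.0034 and at least 0.35 in these 2 lines. The probe at base 3154 passed the limit in the Fbxw11d line only, at 15.4 ± 2.59, below the lowest such signal of the control line, so no fold is given.

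Tlr3, which senses double-stranded RNA and signals through Ticam1 in place of Myd88, gave a signal of 24.4 ± 4.38 in the control line, 26.7 ± 3.97 in the Fbxw11a line, 16.8 ± 3.53 in the Fbxw11c line and 28.2 ± 3.50 in the Fbxw11d line. It was well above background on all 4 arrays, with the Fbxw11c line lowest, except with normexp background correction, when the Fbxw11d line was. The log2 ratios of 0.13 ± 0.61, -0.54 ± 0.70 and 0.20 ± 0.84 were all within the spread between spots at this brightness, and the last of them was -0.33 with normexp background correction. Of the probes well above background on all arrays, 5.27% were at least as far below the control line in the Fbxw11c line.

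Myd88, the shared adaptor, gave a signal of 3250 ± 154 (SD, n = 10 spots) in the control line, 2990 ± 132 (SD, n = 10 spots) in the Fbxw11a line, 3163 ± 177 (SD, n = 10 spots) in the Fbxw11c line and 3955 ± 257 (SD, n = 10 spots) in the Fbxw11d line. The Fbxw11d line was highest, with its lowest spot at 3499 above the highest control spot at 3447, while the spots of the control line, the Fbxw11a line and the Fbxw11c line overlapped. The log2 ratios were -0.12 ± 0.087, -0.039 ± 0.080 and 0.28 ± 0.11, and the second of them was 0.033 with centring on the median and 0.078 without scaling. The last of them ranged from 0.20 on the authors' normalized values to 0.50 with centring on the median, and was 0.90 without scaling. The probe starts at base 1629 of the transcript (mm9, chr9:119245322-119245381). Only the Fbxw11d line, alone on its slide, thus had no spot in the range of the control line, at a difference of 1.22-fold, and non-overlap of this kind was found in 29.9% of probes with 10 spots in that comparison.

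At the threshold of 2-fold, 0 of 10 member probes that could be compared were called in the Fbxw11a line, where 5.13% of all probes were called. In the Fbxw11c line, 0 of 8 were called beside 4.47% of all probes, and in the Fbxw11d line 0 of 11, among them 1 without a fold, beside 6.97%. With so few members, these counts are near what that background gives and are no result about the members. The median log2 ratio over the 8 probes measured on both arrays was 0.12, -0.16 and 0.11 in the 3 lines, against -0.011, -0.0031 and -0.0072 for all probes so measured. Of these 8 probes, 5 read above the control line in the Fbxw11a line, 2 in the Fbxw11c line and 5 in the Fbxw11d line. In the Fbxw11d line this count was 3 with normexp background correction, 7 with centring on the median and 8 without scaling, with medians of -0.047, 0.33 and 0.74.

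**Figure D3:**
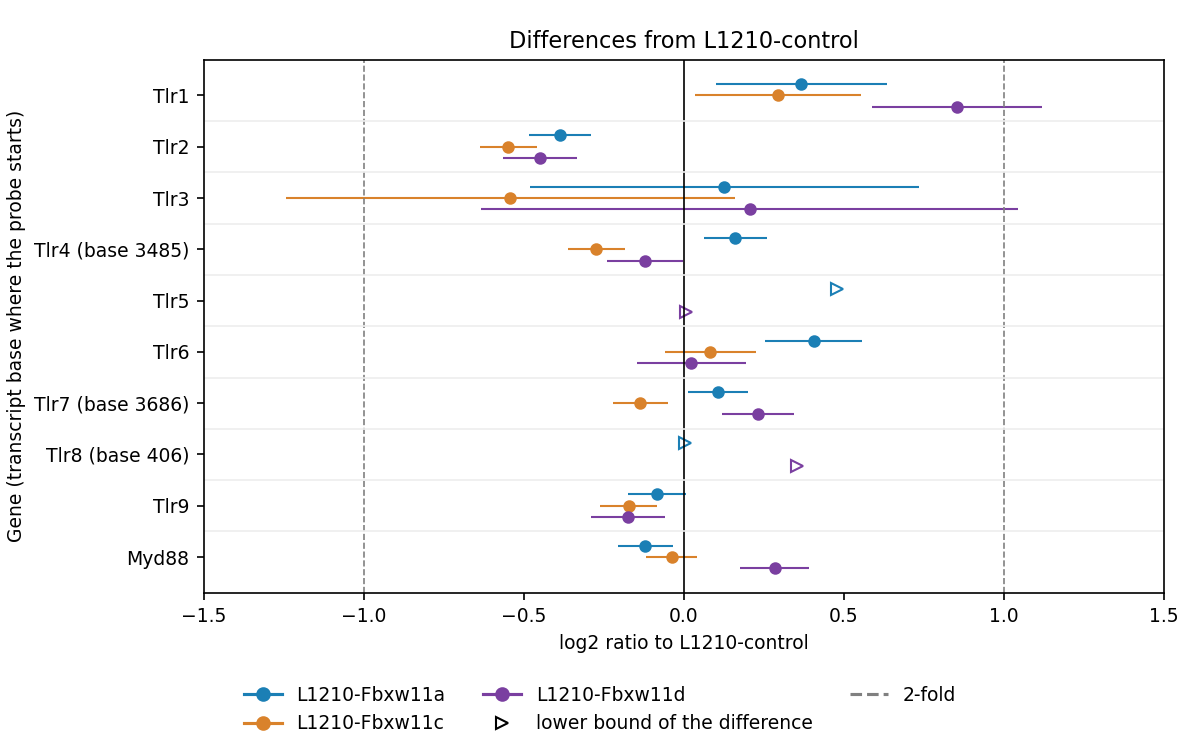
Log2 ratio of each variant line to the control line for the member probes compared, with the spread between spots of probes of like brightness as bars, bounds as open triangles and 2-fold as dashed lines. No mark reaches 2-fold; Tlr2 lies left of 0 in all 3 lines after scaling, at -0.39, -0.55 and -0.45, the last of which was 0.17 without scaling, and Tlr1 in the Fbxw11d line, at 0.85, is the mark farthest from 0.

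The 3 variant lines were also set against each other, and no member probe well above background in at least 1 of the 2 lines compared was called at 2-fold there either, except without scaling. Then Tlr1 and Myd88 were higher in the Fbxw11d line than in the Fbxw11a line, by 2.13-fold and 2.01-fold, and Tlr1, Tlr3 and Tlr8 were higher in it than in the Fbxw11c line, by 2.09-fold, 2.38-fold and at least 2.23-fold. The Tlr7 probes at transcript bases 211 and 3403, on no array well above background, were not compared, and their plain log2 differences between the Fbxw11d line and the Fbxw11a line were -1.34 and 1.32. After scaling, the shares of all probes called at 2-fold were 4.92% between the Fbxw11c line and the Fbxw11a line, 7.34% between the Fbxw11d line and the Fbxw11a line and 5.26% between the Fbxw11d line and the Fbxw11c line. Tlr2 spots overlapped in all of these comparisons, with log2 ratios of -0.16 ± 0.10, -0.063 ± 0.13 and 0.099 ± 0.12, the second of which was 0.15 with centring on the median and 0.54 without scaling. Myd88 was higher in the Fbxw11d line than in both the Fbxw11a line and the Fbxw11c line, by log2 ratios of 0.40 ± 0.12 and 0.32 ± 0.11, which were 1.01 and 0.83 without scaling, and the scaled spots did not overlap. Such non-overlap was found in 23.5% and 16.0% of probes with 10 spots, and in 15.3% between the Fbxw11c line and the Fbxw11a line, where Myd88 spots overlapped. Tlr4 was lower in the Fbxw11c line than in the Fbxw11a line by a log2 ratio of -0.43 ± 0.10.

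The promoter table held windows for 8 of the 10 genes, with Tlr4 and Tlr7 not among them. The NF-κB consensus, a motif of 10 bases, was searched on both strands in the 250 bases before each start site. It was in the windows of Tlr2 and Tlr3 and in 3.9% of all 32851 windows. In Tlr2 it matched on both strands at overlapping positions, in the letters shown above. A match is a match of letters and not measured binding.

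Besides the members, 73 genes of the same pathway were grouped into 8 lists by role. In the lists of partners, adaptors, kinases, transcription factors, negative regulators and other receptors, 0 genes rose at 2-fold, except without scaling, when 4 did in the Fbxw11d line (Traf3, Il1rl1, Il1r1 and Il1rap). Those that fell were 1 of 46 compared (2.17%) in the Fbxw11a line, 2 of 47 (4.26%) in the Fbxw11c line and 1 of 46 (2.17%) in the Fbxw11d line, beside 2.06%, 2.31% and 4.78% of all genes that fell. With so few genes these counts are near that background and are no result about the lists. In either direction, 4.53%, 3.98% and 5.83% of all genes were called. Lbp, a serum protein that carries lipopolysaccharide to Cd14, was the gene that fell in all 3 lines, from a signal of 39.1 in the control line to signals not well above background, by at least 2.72-fold, 2.47-fold and 3.76-fold. It was well above background in the control line only, so that it could be compared only as lower, and it was not called in all 3 lines with normexp background correction or with a limit on both arrays. Ikbke, a kinase of the interferon branch, fell in the Fbxw11c line with a log2 ratio of -1.08, beside -0.83 and -0.97 in the Fbxw11a line and the Fbxw11d line, and was named after its values were seen. Its value in the Fbxw11c line was within 2-fold with normexp background correction, at -0.84, and without scaling, at -0.97. Its value in the Fbxw11d line was -0.35 without scaling. The medians of all these genes were -0.068, -0.0022 and 0.092 on the log2 scale.

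The direct partners of Tlr4 were also named after their values were seen. Cd14 gave signals of 987 in the control line, 790 in the Fbxw11a line, 649 in the Fbxw11c line and 751 in the Fbxw11d line, with the control line highest except without scaling. Its log2 ratios were -0.32, -0.60 and -0.39, the last of which was 0.23 without scaling. Ly96, which binds lipopolysaccharide together with Tlr4, had log2 ratios of -0.10, -0.16 and 0.13. The last of these was 0.35 with centring on the median and 0.75 without scaling. Cd14 is also one of the macrophage and monocyte markers above.

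Outside the list of induced genes, up to 2 genes a list were named by their signal in the control line, which served to choose names and not to compare levels, and after scaling those below stayed within 2-fold. Hsp90b1 and Cnpy3, chaperones that fold Toll-like receptors, had log2 ratios from -0.25 to 0.076 and from -0.26 to 0.16. For the adaptors Tirap and Ticam1 these ran from -0.10 to 0.071 and from -0.13 to 0.032. For Irak2, a kinase that binds Myd88, and Ube2v1, a ubiquitin-conjugating cofactor of Traf6, they ran from -0.19 to 0.19 and from 0.013 to 0.17. Rela, the p65 subunit of NF-κB, and Irf3 ran from -0.25 to -0.070 and from -0.14 to -0.018, and the inhibitors Tollip and Sigirr from -0.22 to -0.11 and from -0.69 to -0.21. Il1r1 and Il1rap, subunits of the interleukin 1 receptor that also uses Myd88, ran from 0.19 to 0.46 and from 0.17 to 0.56, but without scaling reached 1.08 and 1.12 in the Fbxw11d line, past 2-fold. Of the remaining mouse receptors, Tlr13 was well above background on all arrays, with log2 ratios of -0.041, 0.091 and 0.17, and Tlr11 and Tlr12 on none.

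The list of genes that Toll-like receptor signalling is known to induce mostly read lower, which was already known when the list was chosen and is not independent evidence of a direction. Of the genes well above background on both arrays compared, 6 of 10 fell in the Fbxw11a line, 3 of 9 in the Fbxw11c line and 5 of 10 in the Fbxw11d line, and 0 rose, beside 1.21%, 1.22% and 3.53% of all genes so measured that fell. Their medians were -1.12, -0.81 and -0.99 on the log2 scale, against 0.0041, 0.017 and 0.039 for all genes so measured. Cxcl1, Cxcl2 and Nos2 fell in all 3 lines, and they were the 3 that did of the 52 pathway genes well above background on all 4 arrays, beside 0.474% of all genes so measured. Il6 also fell in all 3 lines, though in the Fbxw11c line only as a bound, and so did Ifnb1 as a bound in each line.

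Cxcl1, a chemokine for neutrophils, went from a signal of 12000 in the control line to 793, 1175 and 1181 in the Fbxw11a line, the Fbxw11c line and the Fbxw11d line. Ifnb1, the interferon beta gene, went from 410 to signals not well above background, by at least 28.6-fold, 27.6-fold and 39.4-fold, and like Lbp it could be compared only as lower. Nfkbia, which encodes the NF-κB inhibitor IκBα, fell in the Fbxw11a line with a log2 ratio of -1.06. It had log2 ratios of -0.81 and -0.70 in the Fbxw11c line and the Fbxw11d line. The value in the Fbxw11d line was -0.49 with centring on the median and -0.082 without scaling. Beside these differences, the log2 ratios of the measured receptors and of Myd88 lay between -0.55 and 0.85. No difference between the lists was tested, since each line has 1 array.

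**Figure D4:**
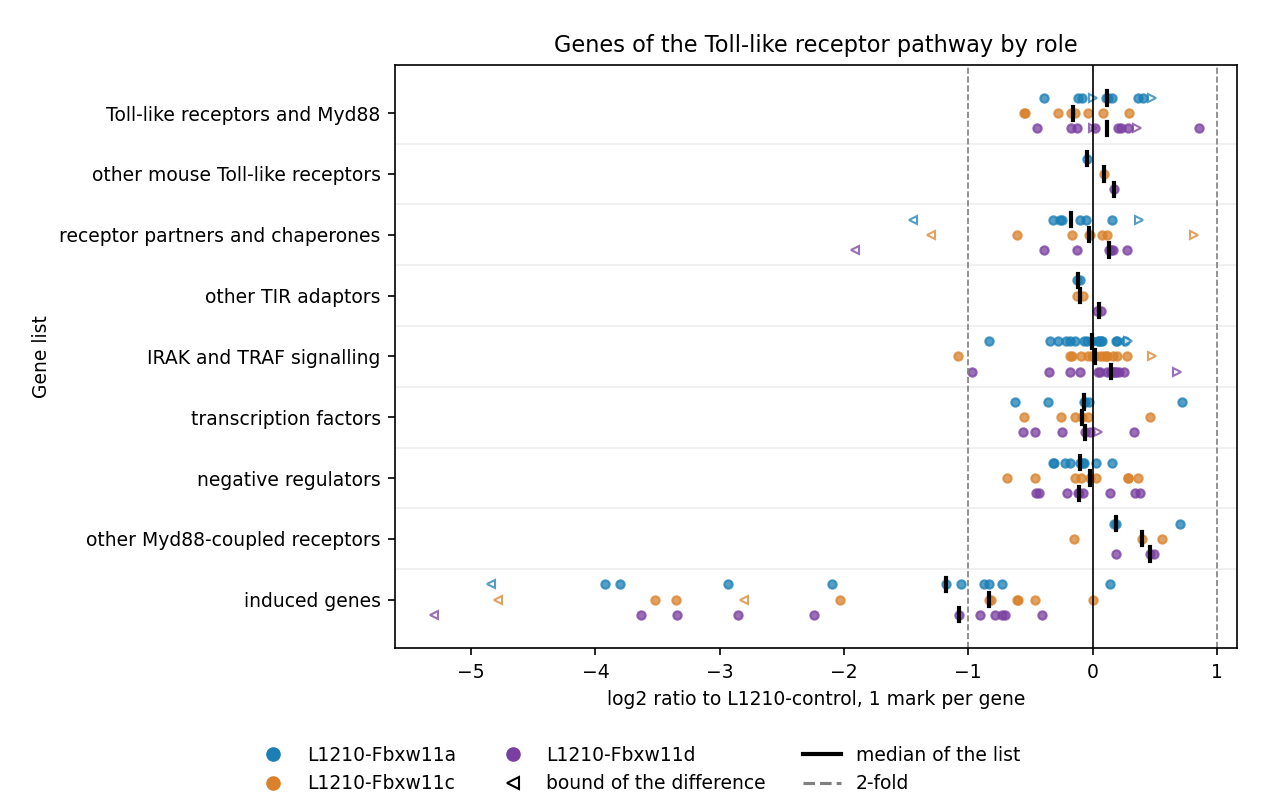
Log2 ratio of each variant line to the control line for genes of the pathway lists that could be compared, 1 mark per gene, with bounds as open triangles, list medians as black bars and 2-fold as dashed lines. The receptors and Myd88 have medians of 0.12, -0.16 and 0.11 and the induced genes, bounds included, of -1.18, -0.83 and -1.08.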

How the data were processed

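Total RNA of each L1210 line was hybridised to 1 Agilent SurePrint mouse array. Per the labels the scans were read with Agilent Feature Extraction 9.1, while the file headers give 10.7.1.1. The authors deposited the scanner output with a background-corrected signal intensity per spot, and a table of the same signals with normalized log2 values, detection flags, gene symbols and mm9 coordinates. The normalization is not given in the sources used here.

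From the deposited intensities, log2 of the processed signal minus the 75th percentile of each array was used. Outlier spots were not used, and replicate spots were combined as a mean of log2 values. At least 0.5 of the spots had to be well above background for a probe to be so, which the deposited flags of all 14 probes matched, and a probe was called at 2-fold. A gene with several probes was taken by the one of highest mean signal. No member probe was called, so genes of like pattern, planned for called members, were not named. Other named genes were those called the same way in all 3 lines and up to 2 per list with the highest control signal, with exceptions as stated. The members and lists were chosen with earlier results of these data known. Alternatives used limma 3.58.1 (normexp, offset 50) in R 4.3.3, quantile normalization, median centring, the authors' log2 values, outlier spots kept and other filters and thresholds. Calling was tested on simulated data with known changes. Python 3.11.15, numpy 2.4.6 and pandas 2.3.3 were used.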

Additional observations from a re-analysis of the deposited data

How the results depend on the processing

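No member was called in L1210-Fbxw11c under any of the alternatives run. In L1210-Fbxw11a 1 probe, that of Tlr5, was called without a filter on dim probes (2.26-fold). In L1210-Fbxw11d 1 probe was called under each of 4 settings. It was that of Tlr1, which read higher, with centring on the median (log2 ratio 1.07) and at a threshold of 1.5. It was also that of Tlr1 without scaling between arrays (1.47), a setting chosen after seeing the data. Without a filter on dim probes it was the Tlr7 probe at transcript base 211, which read lower by 2.39-fold. That probe was on no array well above background. Between the variant lines no member was called under the other normalizations and the background correction run, all chosen after seeing the data, except without scaling, when 2 probes were called between L1210-Fbxw11d and L1210-Fbxw11a and 3 between L1210-Fbxw11d and L1210-Fbxw11c. All 10 genes remained well above background on at least 1 array under the 3 alternatives run. The 6 pathway genes that fell in all 3 lines became 3 (Cxcl1, Cxcl2 and Nos2) with a limit on both arrays compared, 11 at a threshold of 1.5 and 5, without Lbp, with normexp. Centring on the median moved the median of all probes in L1210-Fbxw11d by 0.22, and 3 member log2 ratios changed sign, those of Tlr4 and Tlr9 in L1210-Fbxw11d and of Myd88 in L1210-Fbxw11c. Without scaling these and Tlr2 in L1210-Fbxw11d did so. With normexp Tlr3 and Tlr6 did so in L1210-Fbxw11d, at -0.33 and -0.066. Tlr2 stayed lower under the other normalizations, the background correction and with outlier spots kept, at -0.40 to -0.36 in L1210-Fbxw11a, -0.57 to -0.48 in L1210-Fbxw11c and -0.46 to -0.23 in L1210-Fbxw11d. No paired analysis was possible because each line has 1 array and the labels carry no replicate numbers. The number of arrays limits the precision, and signals near 18 had spreads between spots too wide to order the lines for Tlr3, Tlr5 and Tlr8.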
